A study of Mus musculus with 6 samples.

Results

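The signal recognition particle (SRP), the translocon and the oligosaccharyltransferase form the entry route for proteins made at the endoplasmic reticulum (ER). SRP binds the signal sequence of a nascent protein as it leaves the ribosome and docks the complex at the SRP receptor. The chain then passes through the Sec61 channel, signal peptidase removes the signal sequence, and the oligosaccharyltransferase (OST) attaches N-linked glycans. In B cells the route serves the B cell receptor and other surface glycoproteins, and its use grows when a cell turns to antibody secretion. The 35 genes were chosen by name as subunits or partners of these complexes, out of 55487 gene IDs in the deposited table, and each was found.

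Messenger RNA of marginal zone (MZ) B cells, a splenic B cell subset with high complement receptor 2, was sequenced in bulk, in 3 libraries from CD55KO mice and 3 libraries from WT C57BL/6 mice, all 14 weeks old. CD55, or decay-accelerating factor, is a surface protein that restrains complement on the cell bearing it. The labels give neither the deleted part of Cd55 nor the strain background of the CD55KO mice, and they do not say whether libraries came from separate mice, so the spread behind the p-values is that between libraries and may be technical only. Library totals ran from 24961311 to 29209592 counts in CD55KO libraries and from 20056064 to 30784031 counts in WT libraries. Cd55 itself averaged 7.53 ± 1.36 CPM (counts scaled to the library total and by TMM, a factor that corrects for composition) in CD55KO libraries and 118 ± 7.69 CPM in WT libraries (SD, n = 3 each). The 8 MZ B cell markers summed to 4006 to 4161 CPM in CD55KO libraries and 3779 to 3991 CPM in WT libraries. Every CD55KO sum thus lay above every WT sum, though none of the 8 genes passed the test. Of the 8, 1 (Myof) had a negative log2 fold change, against 49.6% of all genes tested. For Notch2 and Ebf1, every CD55KO library lay above every WT library, as for 7.24% of all genes tested. T cell markers summed to at most 1.51 CPM in any CD55KO library and 0.924 CPM in any WT library. WT replicate 1 had the lowest total, was set apart from the rest on the first principal component, which held 29.8% of the variance, and had the highest erythroid marker sum (35.8 to 1989 CPM over CD55KO libraries, 105 to 4351 CPM over WT libraries).

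Levels are given as TMM-scaled CPM throughout, and differences are log2 fold changes of CD55KO over WT with the standard error (SE) of the edgeR fit. A gene is said to have fallen or risen where edgeR's quasi-likelihood test gave an adjusted p under 0.05 over the 13794 genes tested. The gene set was picked with the CD55KO against WT comparison in these same libraries already known, so the members' fold changes and adjusted p-values describe them and support nothing further. In bulk samples, fewer cells of a type and less RNA per cell cannot be told apart.

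SRP54 is the GTPase subunit of SRP that binds the signal sequence. The mouse genome of the annotation (GENCODE M21, GRCm38) carries 3 copies of its gene side by side on the plus strand of chromosome 12. Srp54a (ENSMUSG00000073079) spans chr12:55080262-55115367, Srp54b (ENSMUSG00000112449) spans chr12:55155104-55189573 and Srp54c (ENSMUSG00000079108) spans chr12:55230168-55263836. The copies fill 183.6 kb, with 39.74 kb between Srp54a and Srp54b and 40.6 kb between Srp54b and Srp54c. Their coding sequences have 1515 bases each. Those of Srp54a and Srp54b are identical, and Srp54c differs from both at 6 bases (99.6% identity). Counted from the A of the start codon, with the base of Srp54a first and that of Srp54c last, the differences are T501C, T945C, G946A, T965G, A1197T and G1249A. They fall in 6 codons, 4 of which encode another amino acid in Srp54c. The stretch of coding positions 911 to 1000, read from the GENCODE M21 transcripts across a spliced intron, is shown because it holds 3 of the 6 differences, and the capitals mark those bases:
Srp54a, chr12:55102492-55105217, plus strand: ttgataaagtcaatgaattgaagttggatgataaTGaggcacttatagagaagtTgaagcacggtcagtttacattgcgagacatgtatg
Srp54b, chr12:55177552-55180277, plus strand: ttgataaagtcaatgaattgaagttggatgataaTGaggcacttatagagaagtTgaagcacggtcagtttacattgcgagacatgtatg
Srp54c, chr12:55252796-55255565, plus strand: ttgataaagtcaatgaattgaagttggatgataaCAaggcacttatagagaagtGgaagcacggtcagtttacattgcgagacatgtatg

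The likeness of the copies bears on how reads could be divided among them. In the longest principal transcript, no stretch of 50 bases in the coding part of Srp54a or Srp54b was absent from the other copies, whereas 220 of 1466 such stretches (15%) in Srp54c were its own. Srp54a carried its own stretches outside the coding part, 244 of 507 before it and 858 of 2476 after it, whereas Srp54b had 0 of 509 before it and 6 of 1622 after it. Over all annotated transcripts, 29.5% of the 50-base stretches of Srp54a, 10.6% of those of Srp54b and 6.1% of those of Srp54c were found in no other gene. The deposited values of all 3 copies were not whole numbers, as estimated counts are where reads are divided between genes. Values of the single copies are therefore uncertain, and the sum of the copies does not depend on that division.

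Srp54 was the SRP subunit with the lower level in CD55KO cells. The copies summed to 148.5, 146.2 and 142 CPM in CD55KO libraries, against 221.6, 201.5 and 202.7 CPM in WT libraries. Every CD55KO library lay below every WT library, and the spread within a genotype was small beside the gap. The means were 146 ± 3.27 CPM in CD55KO cells and 209 ± 11.3 CPM in WT cells (SD, n = 3 each). The summed level fell to 69.8% of WT (95% interval 62.6 to 77.8%), a log2 fold change of -0.52 ± 0.07 (SE; edgeR adjusted p = 0.00241). In the fit with the copies summed, 0.254% of 13792 genes were lower in CD55KO cells. Without WT replicate 1 the log2 fold change was -0.47 (edgeR adjusted p = 0.0183).

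The copies differed in size of change. Srp54b had 30.2, 27.6 and 30.0 CPM in CD55KO libraries, against 60.2, 55.5 and 57.2 CPM in WT libraries. Its level fell by 0.98 ± 0.08 on the log2 scale (edgeR adjusted p = 1.16e-05), the most negative value of the 35 members. Srp54a had 52.5, 49.0 and 48.9 CPM in CD55KO libraries, against 76.4, 70.4 and 73.3 CPM in WT libraries. It fell by 0.55 ± 0.08 on the log2 scale (edgeR adjusted p = 0.00155). Srp54c had 65.7, 69.6 and 63.1 CPM in CD55KO libraries, against 85.1, 75.5 and 72.3 CPM in WT libraries. The Srp54c groups did not overlap, but the highest CD55KO and lowest WT library were close together, and its log2 fold change of -0.23 (95% interval -0.40 to -0.06) missed the threshold (edgeR adjusted p = 0.362).

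The makeup of the Srp54 counts differed as well. Srp54b supplied 20.4, 18.9 and 21.1% of the summed counts in CD55KO libraries, against 27.2, 27.5 and 28.2% in WT libraries. Srp54c supplied 44.3, 47.6 and 44.4% in CD55KO libraries, against 38.4, 37.5 and 35.7% in WT libraries. The share of Srp54a was 34.5 ± 0.922% in CD55KO cells and 35.2 ± 0.862% in WT cells (SD, n = 3 each), and its groups overlapped. The ratio of Srp54b to Srp54c averaged 0.444 ± 0.042 in CD55KO cells and 0.744 ± 0.042 in WT cells, and the ratio of Srp54b to Srp54a averaged 0.584 ± 0.027 in CD55KO cells and 0.785 ± 0.004 in WT cells. Since Srp54b has almost no sequence of its own in its main transcript, these shares also depend on how the reads were divided, and that dependence was not tested.

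**Figure D1:**
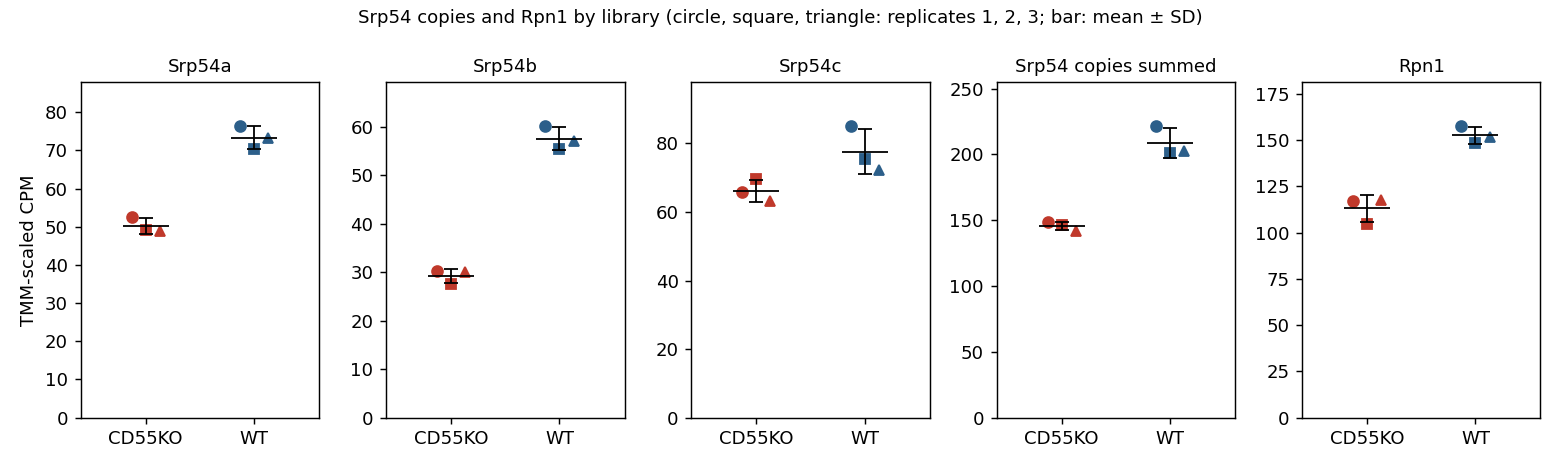
TMM-scaled CPM (y axis, from 0) of Srp54a, Srp54b, Srp54c, the summed Srp54 copies and Rpn1 in each library, CD55KO in red and WT in blue, with circles, squares and triangles for replicates 1, 2 and 3 and bars for the mean ± SD. The groups do not overlap in any panel, the summed copies averaging 146 CPM in CD55KO cells and 209 CPM in WT cells, and the narrowest gap is that of Srp54c.

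The 19 other tested genes within 1 Mb of the copies give the local setting. Of these, 1 was lower in CD55KO cells and 0 were higher, against 0.261% lower and 0.138% higher among all 13794 genes tested. The lower gene was Fam177a, which lies between Srp54a and Srp54b at chr12:55124469-55142104. It had 6.82, 7.32 and 7.88 CPM in CD55KO libraries, against 12.8, 17.7 and 14.3 CPM in WT libraries. The log2 fold change was -1.03 ± 0.15 (SE; edgeR adjusted p = 0.00247), with no overlap between the groups. Fam177a has a near-identical copy between Srp54b and Srp54c, Fam177a2, which shares 98.5% of the 50-base stretches of Fam177a and averaged 1.49 ± 1.62 CPM in CD55KO cells and 0.825 ± 1.27 CPM in WT cells. Fam177a2 has no 50-base stretch that Fam177a lacks, so the split of reads between these 2 genes is uncertain as well.

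The nearest tested genes outside the cluster did not pass the test. Before Srp54a, 2700097O09Rik, whose annotated start lies 0.152 kb from that of Srp54a on the other strand, had a log2 fold change of -0.24 (95% interval -0.51 to 0.02; edgeR adjusted p = 0.632), and the chromatin remodelling subunit gene Baz1a had one of 0.02 (95% interval -0.17 to 0.21). Beyond Srp54c, the phosphatase subunit gene Ppp2r3c had a log2 fold change of -0.02 (95% interval -0.24 to 0.21) and Prorp, which encodes the mitochondrial RNase P nuclease, one of -0.24 (95% interval -0.48 to -0.01; edgeR adjusted p = 0.569). The 18 neighbours that did not pass ranged from -0.41 to 0.94. Both ends were genes of low level, the pseudogene Gm6218 and Fam177a2 (95% interval -3.55 to 5.43). Those with a mean of at least 5 CPM lay between -0.24 and 0.27.

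**Figure D2:**
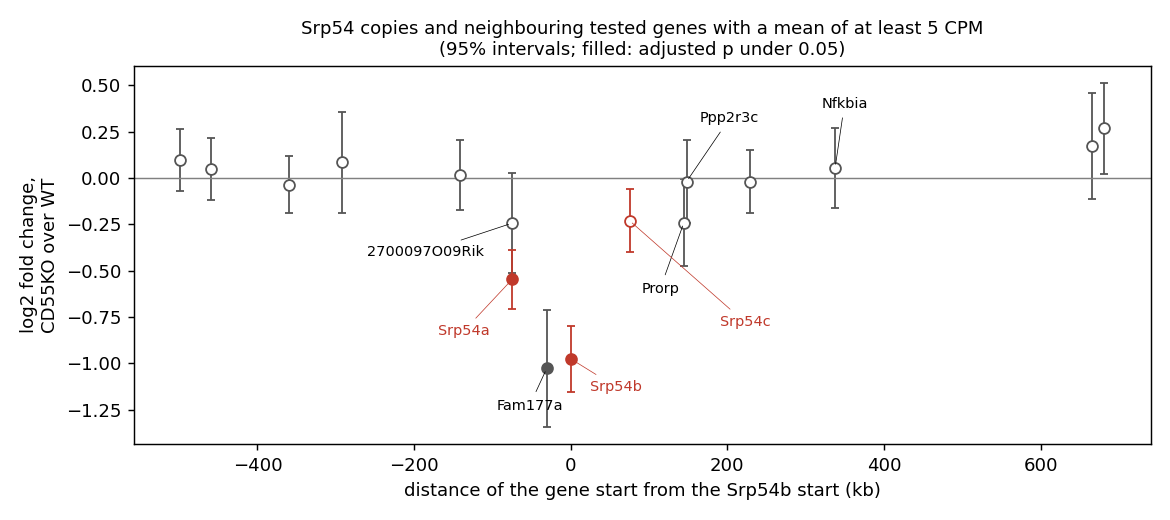
Log2 fold change of CD55KO over WT with its 95% interval (y axis) against the distance of the gene start from the Srp54b start in kb (x axis), for the Srp54 copies (red) and the neighbouring tested genes with a mean of at least 5 CPM (grey), with filled points for an edgeR adjusted p under 0.05. The filled points are Srp54a, Srp54b and Fam177a, with log2 fold changes of -0.55, -0.98 and -1.03.

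The other 5 SRP proteins showed no such difference. SRP9 and SRP14 form the dimer that slows elongation until the ribosome docks. Srp9 had 73.6, 94.8 and 97.7 CPM in CD55KO libraries, against 81.0, 79.1 and 80.8 CPM in WT libraries. CD55KO replicate 1 was the lowest and CD55KO replicates 2 and 3 the highest of the 6 libraries, and the log2 fold change of 0.14 had a 95% interval of -0.05 to 0.34. Srp14 had log2 fold change -0.01 (95% interval -0.19 to 0.17). SRP19 helps assemble the SRP RNA, and Srp19 had log2 fold change 0.01 (95% interval -0.15 to 0.18). SRP68 and SRP72 form a dimer on that RNA. Srp68 had log2 fold change -0.03 (95% interval -0.18 to 0.12). Srp72, the SRP gene with the highest CPM, had 145, 148 and 136 CPM in CD55KO libraries, against 137, 146 and 134 CPM in WT libraries, a log2 fold change of 0.04 (95% interval -0.11 to 0.19).

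The SRP proteins together summed to 652 ± 24.8 CPM in CD55KO cells and 704 ± 12.6 CPM in WT cells (SD, n = 3 each). Without the Srp54 copies the sums were 506 ± 27.2 CPM in CD55KO cells and 496 ± 6.27 CPM in WT cells, which overlapped. Srprb encodes the membrane-anchored beta subunit of the SRP receptor. It had 62.7, 63.0 and 62.6 CPM in CD55KO libraries, against 59.3, 63.2 and 77.2 CPM in WT libraries. The CD55KO values were nearly equal and lay within the WT range (log2 fold change -0.09, 95% interval -0.28 to 0.11).

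The Sec61 channel and its partners did not pass the test in any of their 7 genes. Sec61a1, which encodes the pore-forming alpha subunit, had 201, 192 and 191 CPM in CD55KO libraries, against 195, 201.5 and 209.7 CPM in WT libraries (log2 fold change -0.05, 95% interval -0.21 to 0.10). Its paralog Sec61a2 had 6.12, 5.62 and 5.04 CPM in CD55KO libraries, against 6.85, 6.45 and 5.22 CPM in WT libraries. The groups of both genes overlapped, and Sec61a2 had the widest interval in the whole set, -0.52 to 0.24. Sec61b and Sec61g, the small beta and gamma subunits, had log2 fold changes of -0.03 (95% interval -0.24 to 0.18) and 0.05 (95% interval -0.13 to 0.23). SEC62 and SEC63 serve precursors that enter the channel with little or no help from SRP, and SEC63 brings the chaperone BiP to it. Sec63 had 14.9, 12.99 and 14.99 CPM in CD55KO libraries, against 15.6, 15.7 and 17.4 CPM in WT libraries. Its groups did not overlap, yet the log2 fold change of -0.19 (95% interval -0.44 to 0.07; edgeR adjusted p = 0.732) did not pass. Sec62 had log2 fold change 0.05 (95% interval -0.11 to 0.21). Tram1, which encodes a membrane protein beside the nascent chain, had log2 fold change -0.02 (95% interval -0.22 to 0.18), with a WT range of 137 to 181 CPM that enclosed the CD55KO range of 146 to 166 CPM.

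The translocon-associated protein (TRAP) complex, which assists chains with weak signal sequences, had nearly equal sums in the genotypes. Its 4 genes summed to 484, 498 and 485.3 CPM in CD55KO libraries, against 481, 476 and 512 CPM in WT libraries. Ssr1, for the alpha subunit, had the highest CPM, with 226, 211 and 193 CPM in CD55KO libraries, against 216, 191 and 201 CPM in WT libraries (log2 fold change 0.05, 95% interval -0.13 to 0.23). Ssr2, for the beta subunit, had the smallest p of this complex and still a log2 fold change of -0.09 (95% interval -0.26 to 0.08; edgeR adjusted p = 0.833). Ssr3 and Ssr4, for the gamma and delta subunits, had log2 fold changes of -0.02 (95% interval -0.20 to 0.16) and -0.01 (95% interval -0.21 to 0.19).

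Signal peptidase has a catalytic subunit, encoded by Sec11a or Sec11c, and accessory subunits. Sec11a had 130.3, 145 and 140.1 CPM in CD55KO libraries, against 142, 143 and 161 CPM in WT libraries (log2 fold change -0.11, 95% interval -0.27 to 0.06). Sec11c had 175, 172 and 202 CPM in CD55KO libraries, against 173, 174 and 171 CPM in WT libraries (log2 fold change 0.08, 95% interval -0.08 to 0.25). Neither paralog passed the test, and the groups of both overlapped. Spcs3, for the accessory subunit needed for cleavage, had 93.5, 99.6 and 109 CPM in CD55KO libraries, against 114, 113 and 108 CPM in WT libraries (log2 fold change -0.15, 95% interval -0.31 to 0.01; edgeR adjusted p = 0.617). Spcs2, an accessory subunit with the highest CPM of the complex, had log2 fold change -0.09 (95% interval -0.26 to 0.08). Spcs1, a further accessory subunit, had log2 fold change 0.08 (95% interval -0.10 to 0.25).

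In the OST, Rpn1 was the subunit that fell. RPN1, ribophorin I, is a membrane subunit shared by both forms of the enzyme, and the gene (ENSMUSG00000030062) lies at chr6:88084482-88105304 on the plus strand. It had 117, 104.5 and 117.7 CPM in CD55KO libraries, against 157.6, 148.2 and 151.9 CPM in WT libraries. Every CD55KO library lay well below every WT library. The mean fell to 113 ± 7.44 CPM in CD55KO cells, against 153 ± 4.77 CPM in WT cells (SD, n = 3 each), a log2 fold change of -0.43 ± 0.07 (SE; edgeR adjusted p = 0.0103). The call was lost when either of a pair of libraries was left out, with an edgeR adjusted p of 0.121 without CD55KO replicate 2 and of 0.0727 without WT replicate 1. Of its 50-base stretches, 98.2% were its own, and the rest lay in Mir6376, an overlapping gene on the other strand with a mean count of 0.

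Rpn2, for ribophorin II, did not follow Rpn1. It had 258, 235 and 265.1 CPM in CD55KO libraries, against 243, 268 and 283 CPM in WT libraries (log2 fold change -0.07, 95% interval -0.25 to 0.11). Ddost encodes OST48, and its log2 fold change was -0.12 (95% interval -0.30 to 0.06). Dad1 encodes a small subunit shared by both forms of the enzyme and had the highest CPM of the 35 genes, with 270.5, 279 and 290.5 CPM in CD55KO libraries, against 262, 281 and 304 CPM in WT libraries. Its log2 fold change was -0.01 (95% interval -0.19 to 0.16).

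The enzyme exists in 2 forms, built on the catalytic subunits STT3A, which works at the translocon while the chain enters, and STT3B, which also reaches sites that STT3A skipped. Stt3a had 183, 172 and 178 CPM in CD55KO libraries, against 186, 183 and 198 CPM in WT libraries. Its highest CD55KO library stood just under its lowest WT library, and its log2 fold change of -0.09 (95% interval -0.25 to 0.07) did not pass. Ostc and Krtcap2, for subunits that tie the STT3A form to the translocon, had log2 fold changes of -0.03 (95% interval -0.21 to 0.14) and -0.06 (95% interval -0.21 to 0.10). Stt3b had 41.9, 40.0 and 48.9 CPM in CD55KO libraries, against 44.1, 45.9 and 47.6 CPM in WT libraries (log2 fold change -0.07, 95% interval -0.26 to 0.12).

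MAGT1 and TUSC3 are alternative oxidoreductase subunits of the STT3B form. Magt1 had 53.6, 56.5 and 53.1 CPM in CD55KO libraries, against 63.0, 59.8 and 65.4 CPM in WT libraries. The groups did not overlap, and the log2 fold change was -0.21 (95% interval -0.37 to -0.05; edgeR adjusted p = 0.415), so Magt1 did not pass over all genes tested. Tusc3 had 13.6, 16.1 and 18.3 CPM in CD55KO libraries, against 14.2, 14.6 and 14.7 CPM in WT libraries. Its CD55KO values enclosed the WT values, with a log2 fold change of 0.14 (95% interval -0.13 to 0.41). The OST genes together summed to 1287 ± 39.2 CPM in CD55KO cells and 1382 ± 80.4 CPM in WT cells (SD, n = 3 each), and 1174 ± 34.4 CPM in CD55KO cells and 1229 ± 81.5 CPM in WT cells without Rpn1. Of the 10 genes, 9 had a negative log2 fold change, with a median of -0.07, and 49.6% of all genes tested were negative. Without WT replicate 3, Dad1, Ostc and Krtcap2 had log2 fold changes of 0.04, 0.05 and 0.00.

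**Figure D3:**
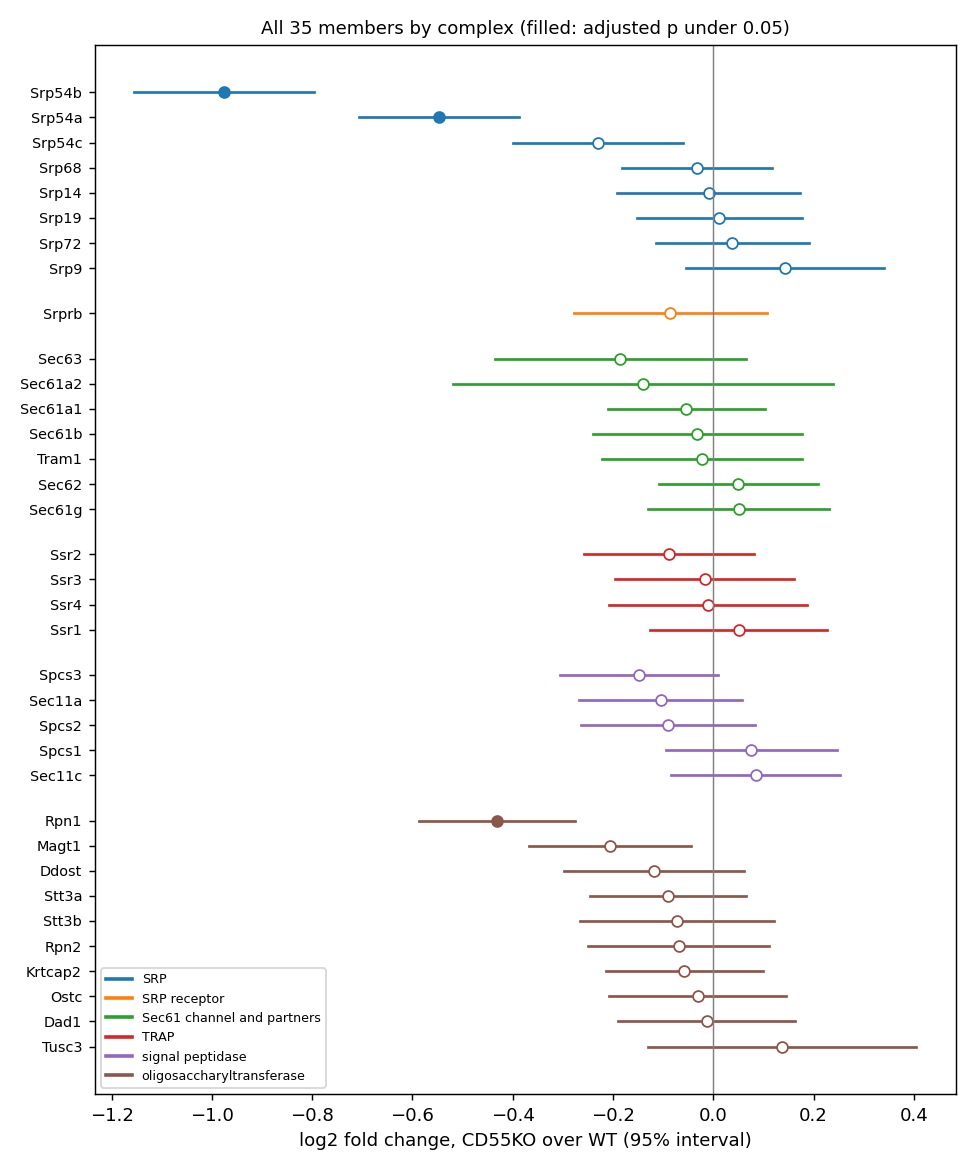
Log2 fold change of CD55KO over WT (x axis) with its 95% interval for each of the 35 genes (y axis), coloured by complex, with filled points for an edgeR adjusted p under 0.05. Filled points are Srp54b, Srp54a and Rpn1, and the other 32 points lie between -0.23 and 0.14.

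**Figure D4:**
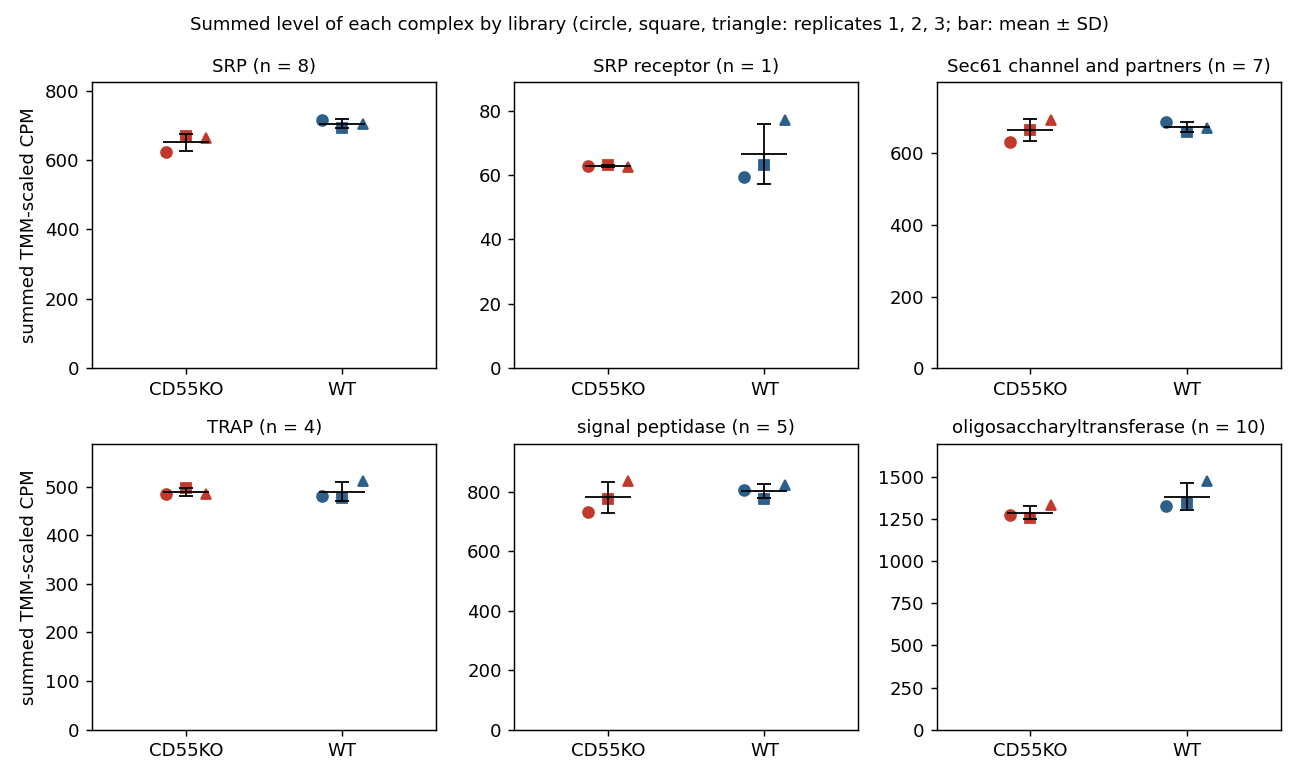
Summed TMM-scaled CPM (y axis, from 0) of each complex in each library, CD55KO in red and WT in blue, with circles, squares and triangles for replicates 1, 2 and 3 and bars for the mean ± SD. The groups do not overlap for SRP (652 CPM in CD55KO cells and 704 CPM in WT cells on average) and overlap for the SRP receptor, the Sec61 channel, TRAP, signal peptidase and the OST.

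Counted over the whole set, all 35 genes passed the filter on low counts, 3 were lower in CD55KO cells (8.57%) and 0 were higher. Among all 13794 genes tested, 0.261% were lower and 0.138% were higher. Srp54a and Srp54b have identical coding sequences, so their calls are not separate. With the copies summed, 2 of 33 genes (6.06%) were lower. All CD55KO libraries lay below all WT libraries in 7 of the 35 genes, and above them in 0. The same held for 6.84% and 7.24% of all genes tested. Those 7 genes were the 3 Srp54 copies, Sec63, Rpn1, Stt3a and Magt1. Because the set was chosen with this comparison known, nothing is read from these counts.

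Outside the Srp54 copies and Rpn1, the remaining 31 genes bound the differences that these libraries allow. Their log2 fold changes lay between -0.21 and 0.14, 22 were negative, and the widest ends of their 95% intervals were -0.52 and 0.41. For 25 of the 35 genes the whole 95% interval lay within 0.3 of 0 on the log2 scale. The median over the 35 genes was -0.05, against a median of 0.00 over all genes tested. By complex, the median was -0.02 for SRP, -0.03 for the Sec61 channel and partners, -0.01 for TRAP, -0.09 for signal peptidase and -0.07 for the OST. The 35 genes took 0.389, 0.389 and 0.398% of all counts in CD55KO libraries, against 0.419, 0.408 and 0.411% in WT libraries. These shares are unscaled and include the Srp54 copies and Rpn1. As TMM-scaled CPM, the 35 genes summed to 3808 to 4073 in CD55KO libraries and 4009 to 4264 in WT libraries, which overlapped. Without the Srp54 copies and Rpn1, the sums were 3542 to 3813 CPM in CD55KO libraries and 3659 to 3909 CPM in WT libraries.

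Levels were compared between genes as CPM per kilobase of the longest principal transcript. The order depends on that length, and which transcript the cells used was not examined. Dad1, with the highest CPM, was divided by 3491 bases and ranked 14 in WT cells, whereas Sec61b was divided by 564 bases. The highest mean was that of Sec11c, 213 ± 19.1 CPM per kilobase in CD55KO cells and 201 ± 2.09 in WT cells (SD, n = 3 each). Sec61b came next with 189.5 ± 28.4 CPM per kilobase in CD55KO cells and 194 ± 11.96 in WT cells, so these neighbours in the order did not differ beyond their spread. Spcs1 and Srp14, the third and the fourth in both genotypes, averaged 162 and 146 CPM per kilobase in CD55KO cells and 154 and 147 in WT cells. At the other end stood Sec61a2, with 2.29 ± 0.221 CPM per kilobase in CD55KO cells and 2.52 ± 0.346 in WT cells, and Sec63, with 2.37 ± 0.188 in CD55KO cells and 2.70 ± 0.170 in WT cells. By this measure, and with the lengths chosen, subunits of 1 complex differed widely.

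Among paralogs, the levels per kilobase were uneven in both genotypes for the Sec61a, Stt3 and Sec11 pairs. Sec61a1 had 61.4 CPM per kilobase in CD55KO cells and 63.7 in WT cells, against the low values of Sec61a2 just given. The coding sequences of these paralogs are 78.3% identical, where identity is counted over the longer coding sequence of a pair. Stt3a had 30.3 CPM per kilobase in CD55KO cells and 32.2 in WT cells, whereas Stt3b had 10.3 in CD55KO cells and 10.9 in WT cells. Their coding sequences, of 2118 and 2472 bases, are 54.0% identical by that count, with 1335 of 2111 aligned bases the same. Sec11c exceeded Sec11a, which had 103 CPM per kilobase in CD55KO cells and 111 in WT cells, with 68.2% identity. Magt1 had 12 CPM per kilobase in CD55KO cells and 13.8 in WT cells, and Tusc3 had 10.4 in CD55KO cells and 9.47 in WT cells, with 65.9% identity. This last pair was apart in WT libraries only, as Tusc3 exceeded Magt1 in CD55KO replicate 3 (11.89 against 11.71). Taken singly, the Srp54 copies stood low. Srp54a, Srp54b and Srp54c had 11.15, 8.03 and 18.2 CPM per kilobase in CD55KO cells, and 16.3, 15.8 and 21.3 in WT cells. Reads of 1 subunit are divided among these copies, so the values do not place the Srp54 subunit as a whole. With the copies ranked singly, Rpn1 held rank 21 of 35 in CD55KO cells and rank 18 in WT cells.

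Part of the spread within a genotype went with transcript length. Deviations of the 35 genes from their genotype mean correlated with log2 transcript length at 0.63 in CD55KO replicate 1, -0.37 in CD55KO replicate 2, -0.45 in CD55KO replicate 3, 0.33 in WT replicate 1, 0.00 in WT replicate 2 and -0.30 in WT replicate 3 (Pearson, over genes that share each library). Sec61b, with a small beta subunit and a short transcript, illustrates this with 88.5, 114 and 118 CPM in CD55KO libraries, against 107, 104 and 117 CPM in WT libraries. The CD55KO replicate 1 value was the lowest of the 6.

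RefSeq promoters (GRCm38.p6), from 250 bases before to 50 after the annotated start, were matched by symbol for 26 of the 35 genes. Whether the Srp54 copies and Rpn1 were among these 26 was not recorded. Motifs of the unfolded protein response, through which a loaded ER raises its own machinery, were searched on both strands. The ER stress response element, CCAAT and CCACG separated by any 9 bases, was found for 0 of these 26 genes. It was found for 0.137% of all 27025 genes with a promoter. The second such element, ATTGG and CCACG separated by any 1 base, was found for 1 of 26, Krtcap2, and for 0.044% of all. The Krtcap2 match began 17 bases after the annotated start. The core TGACGTGG was found for 0 of 26 and for 0.714% of all.

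Genes that work beside these complexes were examined in 9 lists with 74 tested genes, of which 4 were lower in CD55KO cells and 0 were higher, against 0.261% lower and 0.138% higher among all genes tested. These lists, too, were chosen with earlier results of these data known, so nothing is read from their counts. The lower genes were ER chaperones and a lectin. In the list of ER folding factors, 3 of 10 fell (0.261% of all genes did), none rose, and the median log2 fold change was -0.29. Its 2 positive members, which did not pass, were Sil1, for a nucleotide exchange factor of BiP (log2 fold change 0.21, 95% interval 0.02 to 0.39), and Dnajc10, for an ER disulfide reductase (log2 fold change 0.20, 95% interval 0.00 to 0.39). The smallest p of the negative members that did not pass were those of Hspa5, for BiP itself, and Dnajc3. Their log2 fold changes were -0.42 (edgeR adjusted p = 0.0797) and -0.34 (edgeR adjusted p = 0.0901). Sdf2l1, for a partner of the BiP cycle, had 39.3, 39.9 and 42.7 CPM in CD55KO libraries, against 72.4, 66.7 and 78.8 CPM in WT libraries (log2 fold change -0.84 ± 0.08, edgeR adjusted p = 4.54e-05). Hsp90b1, for the ER form of HSP90, had 356, 331 and 349.5 CPM in CD55KO libraries, against 512, 489 and 531.5 CPM in WT libraries (log2 fold change -0.57 ± 0.08, edgeR adjusted p = 0.0023). The groups of both genes were wide apart. Dnajb11, for a BiP co-chaperone, had 56.6, 57.1 and 66.5 CPM in CD55KO libraries, against 84.0, 80.6 and 85.8 CPM in WT libraries (log2 fold change -0.47 ± 0.08, edgeR adjusted p = 0.0092). The call on Dnajb11 was lost without CD55KO replicate 2 (edgeR adjusted p = 0.0829) and without WT replicate 3 (edgeR adjusted p = 0.0652).

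Of the 8 genes for glycan trimming and lectin-assisted folding, Calr fell. It encodes calreticulin, which holds glycoproteins with a trimmed glycan. Calr had 262, 264 and 313 CPM in CD55KO libraries, against 386, 367 and 409 CPM in WT libraries (log2 fold change -0.47 ± 0.09, edgeR adjusted p = 0.0265). The groups did not overlap, but the call was lost under 5 of the 6 fits that left out a library, with edgeR adjusted p up to 0.211.

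In the other 7 lists no gene passed in either direction. Of the 23 genes that build the lipid-linked glycan which the OST transfers, the smallest p was that of the glucosyltransferase gene Alg8, with log2 fold change -0.28 (95% interval -0.52 to -0.05; edgeR adjusted p = 0.456), and the median was -0.01. Of the 3 other OST subunits or partners, Mlec, for the lectin malectin, had log2 fold change -0.35 (edgeR adjusted p = 0.191). Of the 4 genes of the signal peptide peptidase family, 2 were negative and 2 positive. Sppl2b had log2 fold change -0.34 (edgeR adjusted p = 0.266). H13, for signal peptide peptidase itself, had one of -0.28 (95% interval -0.48 to -0.08; edgeR adjusted p = 0.34). The 10 genes of the ER membrane complex, an insertase, had a median of -0.01, with Emc2 at -0.11 (edgeR adjusted p = 0.743). The 7 genes of the tail-anchor route had a median of -0.06, with Asna1, its targeting ATPase, at -0.19 (edgeR adjusted p = 0.479). The 6 genes of the multipass translocon had a median of -0.06, with Wdr83os at 0.13 (edgeR adjusted p = 0.742). The 3 genes of the SRP receptor alpha subunit and the nascent chain factors had a median of 0.04, with Naca at 0.11 (edgeR adjusted p = 0.833).

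**Figure D5:**
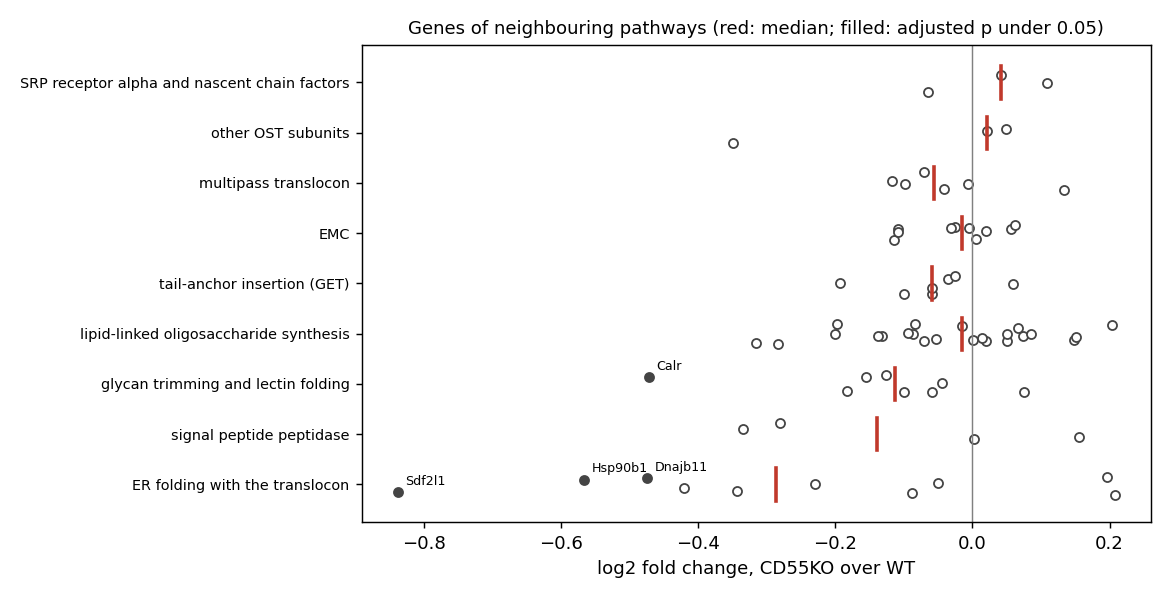
Log2 fold change of CD55KO over WT (x axis) of the 74 genes in 9 lists of neighbouring pathways (y axis), with red bars for list medians and filled points for an edgeR adjusted p under 0.05. The filled points are Sdf2l1, Hsp90b1, Dnajb11 and Calr, all below 0, and the ER folding list has the lowest median, -0.29.

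Antibody-secreting cells are rich in this machinery, and their markers were summed in the same libraries. The plasma cell list summed to 948, 1024 and 1105 CPM in CD55KO libraries, against 1093, 1051 and 1198 CPM in WT libraries, and 6 of its 7 tested genes had a negative log2 fold change, as did 49.6% of all genes tested. Most of this sum was Mzb1, with 845 CPM in CD55KO cells and 887 CPM in WT cells on average (log2 fold change -0.07). Slamf7, the positive member, averaged 78.6 CPM in CD55KO cells and 66.5 CPM in WT cells and did not pass. Xbp1, whose product drives secretory cell genes when the ER is loaded, was the 1 gene of the list that fell (0.261% of all genes did), with 71.6, 80.0 and 83.8 CPM in CD55KO libraries, against 129, 124 and 102 CPM in WT libraries (edgeR adjusted p = 0.00471). The defining markers were low: Sdc1 had 0.525 to 1.76 CPM in CD55KO libraries and 1.21 to 2.62 CPM in WT libraries, Jchain had 2.64 to 9.88 CPM in CD55KO libraries and 10.9 to 32.4 CPM in WT libraries, and Tnfrsf17 was at 0 in every CD55KO library and at most 0.194 CPM in WT libraries. The germinal centre list summed to 29.4 to 39.0 CPM in CD55KO libraries and 32.6 to 93.4 CPM in WT libraries, with 7 of 8 genes negative and 1, Gcsam, lower (edgeR adjusted p = 0.0343). Their part in the values of the Srp54 copies, Rpn1 and the chaperones was not tested.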

How the data were processed

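RNA of sorted MZ B cells was sequenced in 6 libraries, extracted with an RNeasy micro kit and made into libraries with the SMARTer Ultra Low RNA kit (not strand-marking), per the labels' protocols. The authors deposited estimated counts for each gene, unscaled. DRAGEN, edgeR and limma stand in the submitters' processing notes with neither version nor role. Alignment settings, genome build and read length: not given in the sources used here. The 287 repeated rows were removed and counts rounded. Between 30.9 and 31.9% of nonzero values in a library were not whole (tolerance 0.005). Positions came from GENCODE M21 by gene ID, where 99.4% of IDs were found.

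The test was that of edgeR 4.0.16, run in R 4.3.3 (filterByExpr with a minimum count of 10, TMM, robust quasi-likelihood F-test, genotype alone). The filter removed 41693 genes, and Benjamini-Hochberg adjustment ran over the 13794 kept, of which 1186 had an unadjusted p under 0.05. Intervals are at 95%. The test was checked on simulated counts. The 6 libraries carry replicate numbers, but same-numbered libraries did not deviate together (correlations 0.093, -0.161 and 0.201), so the numbers were not used as pairs. No pair of replicates was close enough to be 1 library deposited again (chi-square of 14.1 to 36.1 per degree of freedom). Stretches of 50 bases and coding identity came from GENCODE M21 transcripts with Biopython 1.88; coding sequences were compared because protein sequences were not used here. Names Pat10 and Asterix of the multipass list were not matched.

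The members and lists were chosen with earlier results of these data known. Named genes are every Srp54 copy, every member past the threshold, and in each complex those with the smallest p and the highest CPM, plus paralog pairs; the remaining members are given so that all 35 are accounted for. In each other list they are up to 3 genes past the threshold or the gene with the smallest p, and near Srp54 those past the threshold and the nearest genes on each side. Fam177a2, Gm6218, Rpn2, Sil1, Dnajc10, Hspa5, Dnajc3, H13 and single marker genes were chosen after seeing their values.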

Additional observations from a re-analysis of the deposited data

How the results depend on the processing

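Across 15 other settings (replicate block, RLE factors, library totals, DESeq2 1.42.0, limma-voom 3.58.1, no or a stricter count filter, a non-robust fit, no immunoglobulin genes, each library left out), no member was called higher, and none of Srp54a, Srp54b, the summed copies, Rpn1, Sdf2l1, Hsp90b1, Dnajb11, Calr and Fam177a changed sign. Cd55 and the marker genes were not run in these settings. Srp54a, Srp54b and the summed copies passed in all 15, the sum with log2 fold changes from -0.54 to -0.47. Srp54c passed in 0. Rpn1 passed in 13 of 15, so that 3 members were lower in all but the fits without CD55KO replicate 2 or WT replicate 1, which left 2. Sdf2l1, Hsp90b1 and Fam177a passed in 15, Dnajb11 in 13 and Calr in 9. Calr also missed in the non-robust fit (edgeR adjusted p = 0.0914), and Mlec passed without the count filter (adjusted p = 0.0157). Over all genes, 36 lower and 19 higher became 78 and 60 with DESeq2, and 128 and 104 without the filter. The cause was not tested. With a library left out, lower calls were 24 to 35, higher calls 12 to 20 (12 without WT replicate 3), and the members' median log2 fold change -0.0889 (without CD55KO replicate 3) to -0.0102 (without WT replicate 3), against -0.0537 with all libraries.

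With the replicate number as a block, 3 members were lower, 43 genes were lower and 21 higher, the summed Srp54 log2 fold change was -0.52 (adjusted p = 0.00333), and Rpn1 had adjusted p = 0.0115. The same-numbered correlations do not show pairing.

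Having only 3 libraries per genotype, with WT replicate 1 at lower depth, limits what small differences can be seen. The division of reads among the Srp54 copies limits statements on each copy.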
